A study of Mus musculus with 2 samples.

Results

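Transcripts of 9 complement genes were followed across the stromal, endothelial and macrophage cells of mouse bone marrow. The genes were C3, C4b, C1ra, C1s1, Cfb, Serping1, C1qa, C1qb and C3ar1, taken by symbol from both count matrices, and all 9 were found among the 32286 rows of each. The series used 4 male Adipoq-CreERT2;Ai9 mice, in which tamoxifen lets a Cre driven by the adiponectin promoter switch on the red reporter tdTomato. Tamoxifen was given by gavage on 3 days at 8 weeks of age, in both groups. Marrow cells of the endosteum of femur and tibia were collected 24 h later for the pulse library and 4 weeks later for the chase library, so the chase mice were also older. Bright reporter-positive cells were sorted, which made up 0.01% of pulse and 0.29% of chase cells, and each group gave a single 10x Genomics 3′ library. The sources used here do not say how the 4 mice were divided.

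Complement is a cascade of plasma and tissue proteins that marks surfaces for uptake and lysis. In the classical route, C1q (built from the products of C1qa, C1qb and C1qc) binds a target and the serine proteases C1r and C1s cleave C4 and then C2. In the alternative route, factor B, the product of Cfb, joins cleaved C3 to form the convertase that cleaves more C3. Serping1 encodes C1 inhibitor, which inactivates C1r and C1s, and C3ar1 encodes the receptor for the C3a fragment. The liver makes most plasma complement, whereas macrophages are known as the main source of C1q. Cxcl12-abundant reticular cells, or CAR cells, are the marrow stromal cells that express Cxcl12, the leptin receptor and adiponectin and support blood formation.

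The pulse library held 10608 barcodes and the chase library 10046, with medians of 7067.5 and 6592 UMIs (counted transcript molecules), and 9212 and 8335 cells were kept. Cells were gated by how many of a class's marker genes had a UMI, and no complement gene was a marker. The CAR gate took 4078 pulse and 3778 chase cells, the endothelial gate 336 and 288, the macrophage gate 945 and 846, the osteoblast gate 454 and 347 and the monocyte gate 320 and 547. Each gate is a range of a marker count rather than a proven type: 246 pulse and 278 chase CAR-gated cells sat on the threshold of 6 of 8 markers, and 310 and 397 cells lay 1 marker below it. CAR-gated cells carried a median of 8 CAR markers and 0 endothelial or macrophage markers in both libraries. They also carried a median of 2 of 7 neutrophil markers, and macrophage-gated and endothelial-gated cells a median of 3 of 8 CAR markers. Reporter transcript was at 2100 counts per 1000000 UMIs of the class (CPM) in pulse and 2043 in chase CAR-gated cells and at 188 and 131 in macrophage-gated cells, a class that a clean reporter sort would remove. It was at 1000.5 and 639 CPM in lymphocyte-gated and at 380.3 and 1536 CPM in osteoblast-gated cells. The libraries shared 52 barcodes. The CAR-gated cells of the 2 libraries lay mostly in different clusters, numbered 0, 6 and 3 in the pulse library and 1, 7 and 3 in the chase library. With 1 library per group there is no replicate check of any difference and no p-value is given. All intervals are exact 95% intervals that cover counting error only, and library, time after tamoxifen and age cannot be told apart.

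C3, the protein at which the routes of activation meet, was read from CAR-gated cells and from myeloid cells. In CAR-gated cells its level was 65.3 CPM in the pulse library (interval 62.7 to 67.9) and 212 CPM in the chase library (207 to 218). Macrophage-gated cells stood the other way, at 226 CPM in pulse and 107 CPM in chase. Monocyte-gated cells had 199.9 and 156 CPM. The highest C3 levels were those of neutrophil-gated cells, 362 CPM in pulse and 479.9 CPM in chase, and granulocyte progenitor-gated cells had 244 and 206 CPM. Endothelial-gated cells had 13.9 and 9.81 CPM, osteoblast-gated cells 6.75 and 8.43 CPM, and B, T and NK cells, gated together as lymphocytes, 7.19 and 3.82 CPM. In the order of levels, CAR-gated cells thus stood below the macrophage, monocyte, progenitor and neutrophil gates in the pulse library. In the chase library they stood level with granulocyte progenitors, whose intervals overlapped, and above macrophages and monocytes.

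C4b, the C4 precursor cleaved by C1s, was at 384 CPM in pulse and 714 CPM in chase CAR-gated cells. Its next highest level was in chase macrophage-gated cells, 22.3-fold (19.8 to 25.2) below that of chase CAR-gated cells, and lymphocytes, which should lack it, had 8.50 and 7.96 CPM. The proteases followed the same pattern. C1ra was at 157 and 298 CPM in CAR-gated cells and at 27.2 CPM or less elsewhere, and C1s1 at 146 and 284 CPM against 10.7 CPM or less. Serping1, the inhibitor of both proteases, was at 1984 and 2550.1 CPM in CAR-gated cells, with endothelial-gated cells next at 119 and 103 CPM. Cfb was at 64.6 and 115 CPM in CAR-gated cells, at 21.4 and 36.6 CPM in endothelial-gated cells and at 11.2 and 31.4 CPM in macrophage-gated cells. Mouse C4b, C1ra and C1s1 each have a near-identical neighbour whose reads can be exchanged with theirs. C4a, C1rb and C1s2 reached at most 0.466, 0.179 and 0.214 CPM in any CAR, osteoblast, endothelial, macrophage or monocyte gate. Reads of these neighbours that were assigned to C4b, C1ra or C1s1 would not show in those values, so the size of the exchange is not known.

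The C1q genes and the C3a receptor belonged to the macrophage gate. C1qa was at 5315 CPM in pulse and 5003 CPM in chase macrophage-gated cells, and C1qb at 3529 and 3619 CPM. C3ar1 was at 115 and 143 CPM there and at 7.46 and 4.88 CPM in monocyte-gated cells. In CAR-gated cells C1qa was at 23.9 and 21.7 CPM, beside 38.6 and 16.9 CPM in lymphocytes, and the source of these UMIs was not tested. A single pulse cell held 102 of the 877 C1qa UMIs of the CAR gate. C3ar1 had only 24 and 14 UMIs in all CAR-gated cells, 0.653 and 0.502 CPM, and 0 and 1 UMI in endothelial-gated cells.

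**Figure D1:**
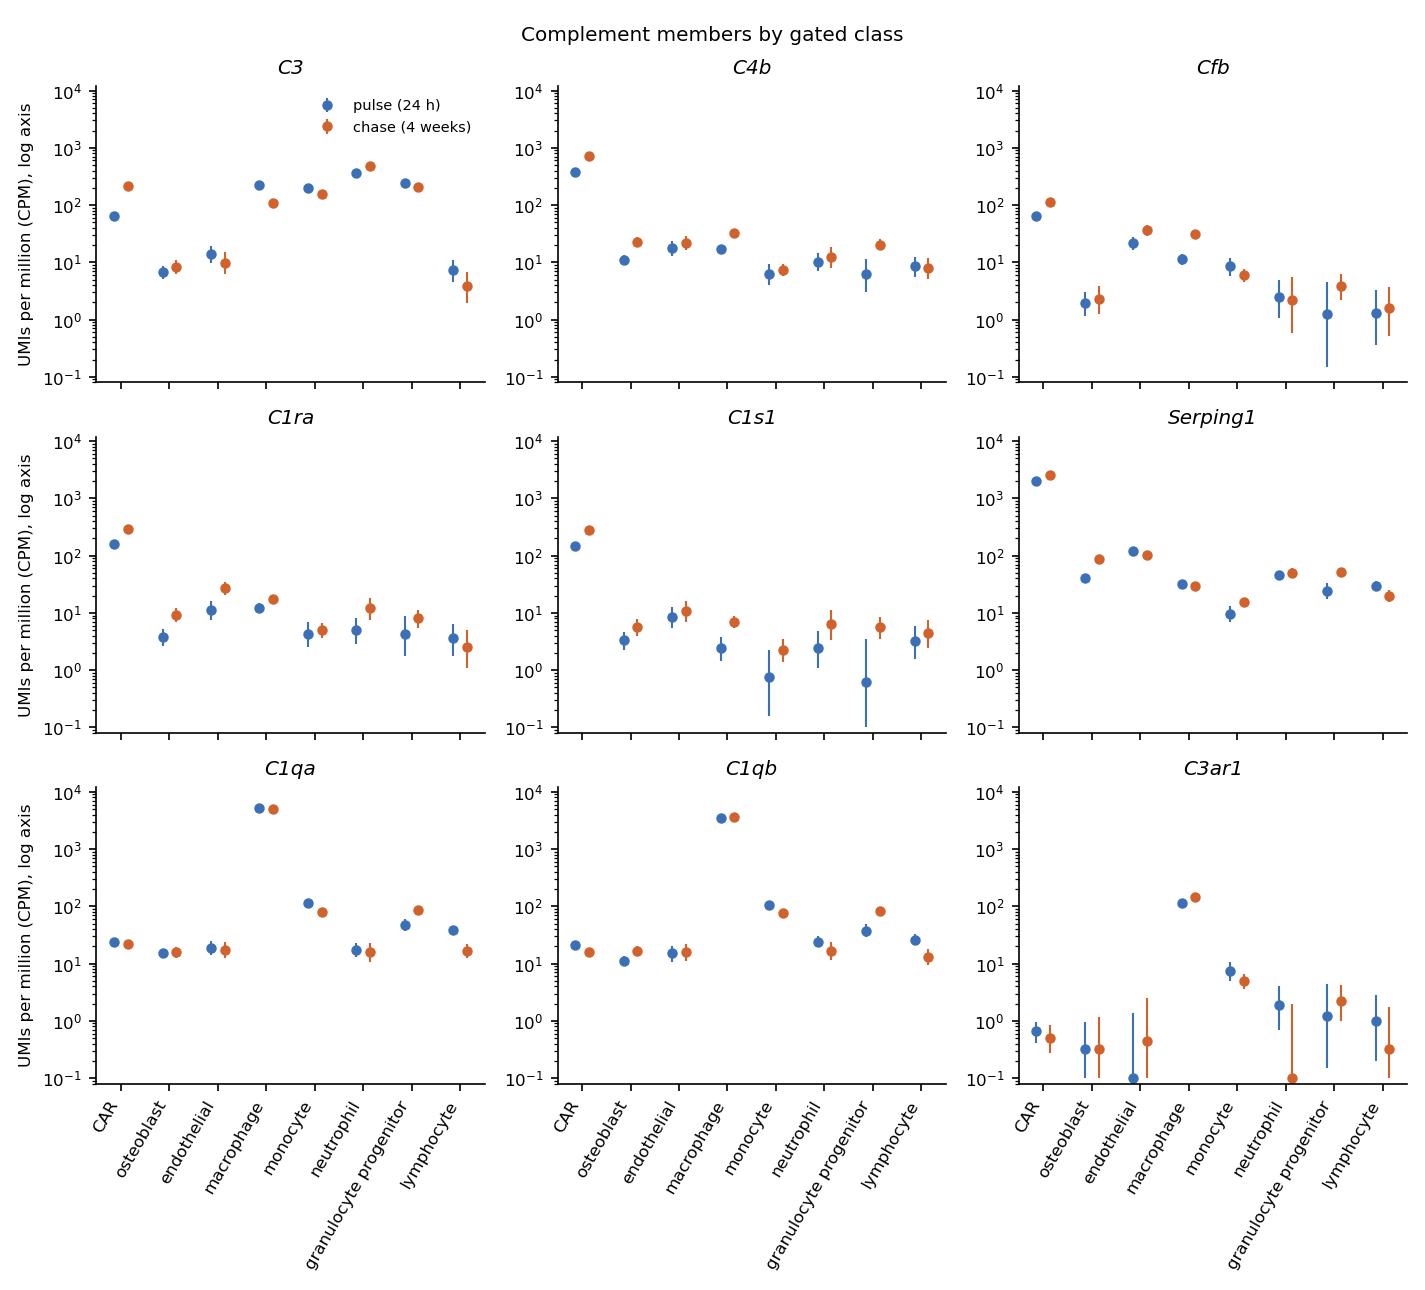
Level of each member in CPM (log axis) in 8 gated classes, with pulse in blue, chase in orange and exact 95% Poisson intervals as bars; a level under 0.1 CPM is drawn at 0.1. C4b, C1ra, C1s1 and Serping1 peak in CAR-gated cells, C1qa, C1qb and C3ar1 in macrophage-gated cells, and C3 is high in both and in neutrophil-gated cells.

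Set directly against each other, CAR-gated and macrophage-gated cells divided the cascade. At a 2-fold rule with an interval that excludes 1, C4b, C1ra, C1s1, Cfb and Serping1, 5 of the 9 members, were higher in CAR-gated cells of the pulse library, where 28.3% of the 12781 genes measured were higher. C3, C1qa, C1qb and C3ar1, the other 4, were lower there, against a background of 16.6%. In the chase library the same 5 were higher (background 30%) and C1qa, C1qb and C3ar1, 3 members, were lower (16.3%). In the pulse library Serping1 was 60.8-fold (53.6 to 69.2), C4b 22.7-fold (19.0 to 27.2) and Cfb 5.78-fold (4.65 to 7.27) higher in CAR-gated cells. C1qa was 223-fold (208 to 238) higher in macrophage-gated cells. C3 was 3.46-fold (3.25 to 3.69) higher in pulse macrophage-gated cells, and in the chase library 1.99-fold (1.86 to 2.14) higher in CAR-gated cells.

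Free RNA in the droplets can give other classes some stromal transcripts, so the levels outside the CAR gate were set beside an estimate of such carry-over. Agt, Gdpd2 and Chrdl1, CAR transcripts outside all gates that were chosen after their values were seen, gave a median carry-over of 4.26% of the CAR level in pulse endothelial-gated cells and 1.99% in pulse macrophage-gated cells. C4b in endothelial-gated cells was 1.08 times the level this predicts in pulse and 0.939 times in chase. Serping1 there was 1.40 and 1.24 times the prediction, and in macrophage-gated cells 0.827 and 0.640 times. Osteoblast-gated cells had Serping1 at 1.05 and 1.15 times and C4b at 1.43 and 1.10 times the prediction. In macrophage-gated cells C4b was 2.22 and 2.52 times and C1ra 3.92 and 3.26 times the prediction, and C1ra in endothelial-gated cells was 1.68 and 2.80 times. The estimate is uncertain, because its 3 genes disagreed: in pulse osteoblast-gated cells they gave 0.723%, 1.98% and 9.29% of the CAR level. The part of carry-over in these levels was not tested. Cfb was 7.76 times (5.88 to 10.1) and 9.79 times (7.78 to 12.1) the prediction in endothelial-gated cells and 8.70 and 15.4 times in macrophage-gated cells. C3 was 174 and 28.2 times the prediction in macrophage-gated cells and 186 and 97.6 times in neutrophil-gated cells.

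The share of cells in which a member was seen was compared after every cell was thinned to 2000 UMIs. In the CAR gate 60 pulse and 98 chase cells were too shallow and were left out. A C3 UMI was present in 10.5% of pulse (9.57 to 11.5) and 26.2% of chase CAR-gated cells (24.8 to 27.6). Before thinning these shares were 28.4% and 48.5%, at median depths of 8421 and 6936.5 UMIs. Lymphocytes had C3 in 1.58% and 0.826% of thinned cells, at median depths of 2461 and 3953.5 UMIs before thinning. Of 965 pulse and 504 chase lymphocytes, 269 and 20 were too shallow and were left out. C4b was seen in 48.3% and 69.4% of CAR-gated cells and Cfb in 10.9% and 18.7%, against 2.01% and 1.86%, and 0.431% and 0.413%, of lymphocytes. Serping1 was seen in 92.7% and 96.1% of CAR-gated cells, so a Serping1 transcript was close to universal in the class while C3 and Cfb marked a minority at this depth. C1qa was seen in 99.4% and 99.3% of macrophage-gated cells, against 3.53% and 4.65% of CAR-gated cells and 6.18% and 3.10% of lymphocytes. C3 was seen in 24.0% and 13.4% of macrophage-gated cells and in 48.4% and 60.6% of neutrophil-gated cells.

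**Figure D2:**
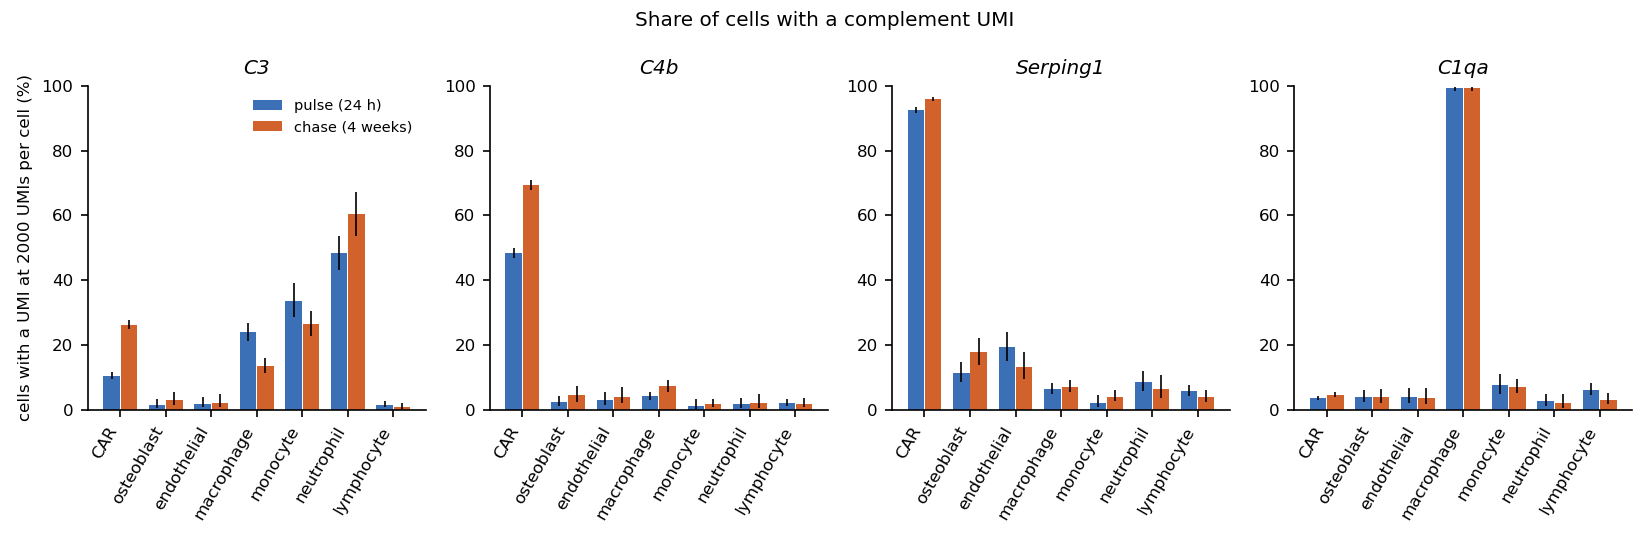
Percentage of cells with at least 1 UMI after thinning to 2000 UMIs per cell, for C3, C4b, Serping1 and C1qa in 7 gated classes, with exact 95% binomial intervals. C3 is seen in 10.5% of pulse and 26.2% of chase CAR-gated cells and in 48.4% and 60.6% of neutrophil-gated cells. In osteoblast-gated cells it is seen in 1.56% and 2.95%.

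Within the CAR gate, a thinned cell of the chase library held more of the 6 stromal members C3, C4b, C1ra, C1s1, Cfb and Serping1. At least 1 UMI of exactly 4 members was present in 9.13% of pulse and 23.0% of chase cells. All 6 were present in 7 of 4018 pulse cells (0.174%) and in 58 of 3680 chase cells (1.58%). None was present in 3.36% and 1.30%. Pairs were seen together slightly more often than the product of their shares: C3 with Cfb 1.46 times in pulse and 1.18 times in chase, and C3 with C4b 1.24 and 1.09 times. These ratios are descriptions over cells thinned to the same depth, and their source was not tested. Before thinning, the 5% of CAR-gated cells that held most C3 had 43.7% of its pulse and 35.5% of its chase UMIs, against 14.5% and 13.9% for Serping1. These shares depend on abundance, since a scarcer transcript falls on fewer cells by counting alone. C3 had 2398 and 5926 UMIs and Serping1 72913 and 71186.

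The chase and pulse libraries were next compared inside each class, with members of at least 50 UMIs over both libraries counted as measured and called at 1.5-fold with an interval that excludes 1. In CAR-gated cells 5 of 8 measured members were higher in chase, where 7.13% of all 13160 measured genes were higher, and 0 were lower (background 6.57%). The members' median log2 ratio was 0.86, and that of all measured genes was -0.02. C3 had the largest ratio of the 9, 3.25 (3.10 to 3.41). C1s1 was at 1.94 times its pulse level, C1ra at 1.90 times (1.84 to 1.97), C4b at 1.86 times (1.82 to 1.90) and Cfb at 1.77 times (1.68 to 1.87). Serping1 was at 1.29 times (1.27 to 1.30), under the threshold. C1qa and C1qb had ratios of 0.908 and 0.734 at low levels, and C3ar1 had too few UMIs. The ratios moved little between the ways of processing tried, from 3.19 to 3.39 for C3 and from 1.77 to 1.90 for C4b. Neutrophil markers moved with this difference, from 2577 to 3531 CPM summed over 7 genes, with none at 0. At that share of neutrophil RNA, 2.23 CPM of the pulse and 3.90 CPM of the chase C3 in CAR-gated cells would come from neutrophils. Such an estimate is rough. Made from macrophage markers, it gave 78.7 and 91.8 CPM of C1qa in CAR-gated cells, where 23.9 and 21.7 CPM were seen. The part of neutrophil RNA in the C3 difference was not tested.

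**Figure D3:**
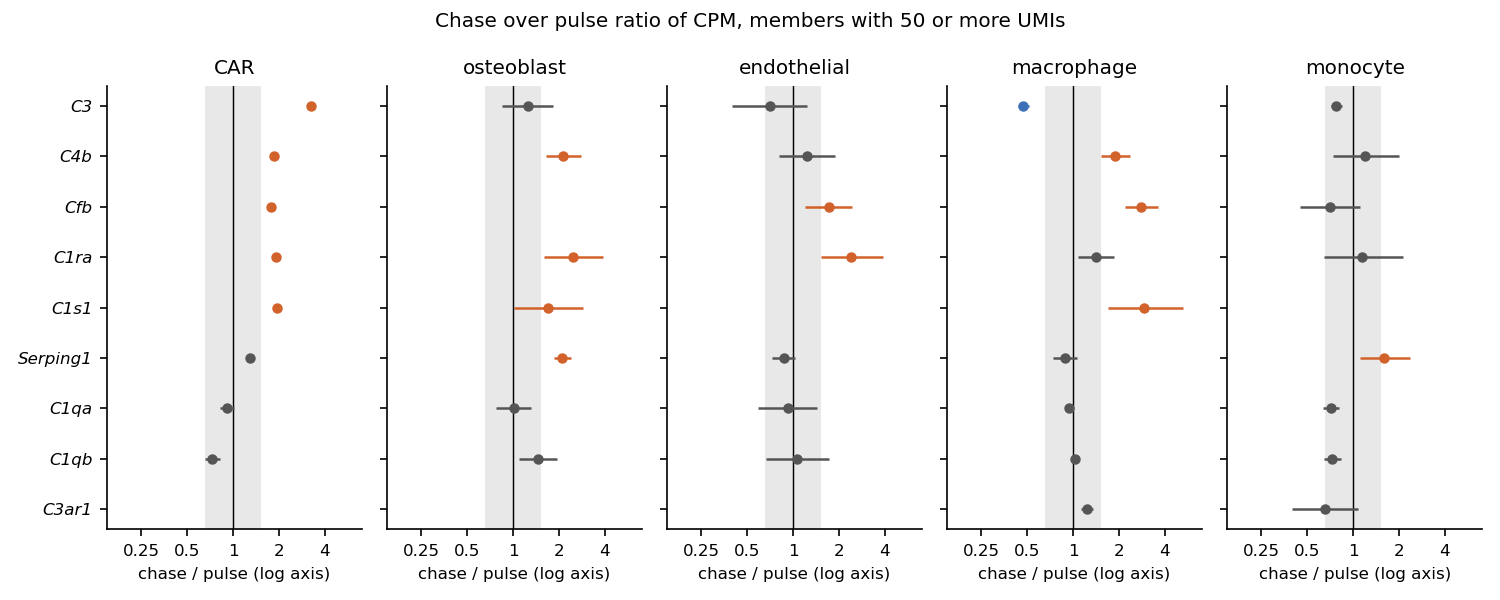
Ratio of chase to pulse CPM (log axis) for members with at least 50 UMIs, by gated class, with exact 95% intervals; grey marks ratios within 1.5-fold, orange a higher call and blue a lower one. C3 is at 3.25 in CAR-gated and 0.472 in macrophage-gated cells.

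CAR-gated cells range from a side with little Alpl and Wif1, an alkaline phosphatase and a Wnt inhibitor of the bone lineage, to a side rich in both. On the low side (under 2 UMIs of both together per 10000, 2537 pulse and 1681 chase cells) C3 was at 78.0 CPM in pulse and 231 CPM in chase. On the high side (8 or more, 653 and 632 cells) it was at 34.4 and 167 CPM, a ratio of 4.86 (4.20 to 5.64). C4b was at 459 and 796 CPM on the low side and at 179.6 and 439.9 CPM on the high side. At the 2-fold rule C3, C4b, C1ra, C1s1 and Cfb, 5 members, were higher on the low side in pulse, where 4.47% of genes were higher, and 0 were lower (background 4.97%). In chase only Cfb of the 9 was higher by that rule, 139 against 62.6 CPM, with backgrounds of 3.45% higher and 3.17% lower. Serping1 differed by 1.67-fold in pulse (2211 against 1327 CPM) and by 1.55-fold in chase (2793 against 1801 CPM).

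Clusters of the same cells, made without the complement genes, showed where the members were densest. Cluster 4 (332 pulse and 229 chase CAR-gated cells) was led by Fabp4, Hsd11b1 and Plin1, of which Fabp4 and Plin1 are lipid-handling genes. It had the highest C3, C4b and Cfb of the clusters with at least 50 cells. C3 was at 183 CPM in pulse and 413 CPM in chase there, C4b at 976 and 1203 CPM and Cfb at 173 and 200.1 CPM. Cluster 3 (723 and 329 cells), led by Postn, Omd and Alpl, had the lowest C4b and Cfb, with 195 and 315 CPM of C4b and 21.4 and 24.6 CPM of Cfb. Both clusters held C3 at a higher level in chase, by 2.25-fold (2.00 to 2.53) in cluster 4 and 4.12-fold (3.52 to 4.82) in cluster 3. In cluster 1 (94 and 2180 cells), led by the chemokine gene Cxcl10, C3 was 3.33-fold (2.44 to 4.67) higher in chase, and in cluster 0 (1849 and 59 cells) 1.65-fold (1.17 to 2.26). Other ratios were smaller inside clusters than over the gate: C4b was at 1.23 to 1.61 times and Cfb at 1.15 to 1.39 times its pulse level over these 4 clusters, and the Cfb interval excluded 1 in clusters 1 and 4 and not in 0 and 3. Leaving out each cluster in turn gave ratios over the gate from 3.05 to 3.49 for C3, from 1.64 to 1.99 for C4b and from 1.51 to 1.91 for Cfb. In pulse, 58 CAR-gated cells lay in cluster 21, whose leading genes are those of neutrophils, and their C3 was at 109 CPM. Without that cluster the C3 ratio was 3.28.

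**Figure D4:**
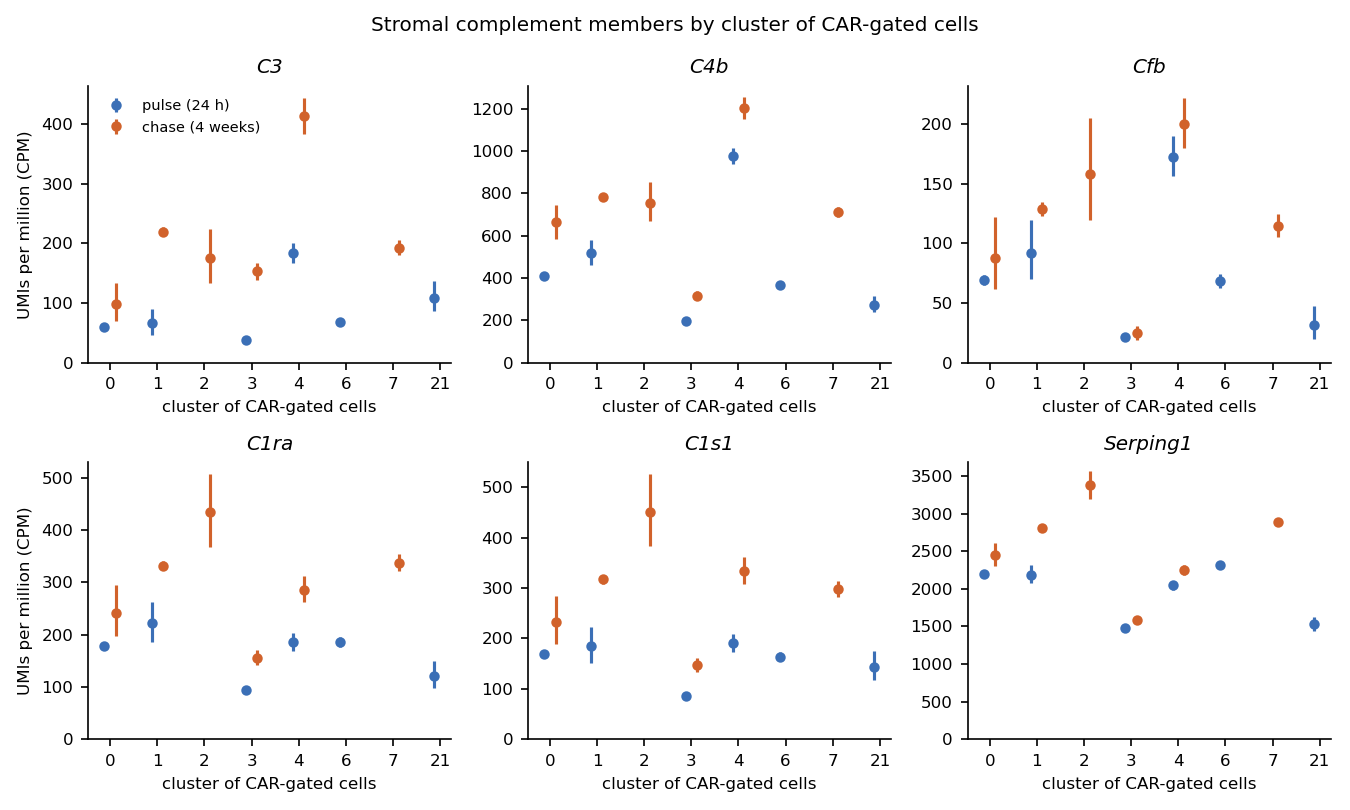
CPM of the 6 stromal members by cluster of CAR-gated cells, for each library with at least 50 cells in the cluster, with exact 95% Poisson intervals. Cluster 4 has the highest C3 and C4b, cluster 3 the lowest C4b and Cfb, and chase stands above pulse for C3 in each cluster drawn for both libraries.

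Complement genes are known targets of inflammatory and interferon signals, and both programmes differed between the libraries. Summed over 14 inflammatory genes, CAR-gated cells had 1501 CPM in pulse and 3030.4 CPM in chase, and over 20 interferon-response genes 2019 and 3544 CPM. When the cells of each library were divided into 4 equal parts by their inflammatory sum, C3 in the pulse library was at 44.5 CPM in the lowest part and 89.4 CPM in the highest, a ratio of 2.01 (1.78 to 2.27). The corresponding ratios were 1.75 for Cfb, 1.60 for C1ra, 1.59 for C1s1, 1.51 for C4b and 1.48 for Serping1. C1qa had a ratio of 2.30 (17.4 to 40.1 CPM) along the same parts and C1qb of 2.07, though 1 cell held 102 of the 877 pulse C1qa UMIs. These 2 macrophage transcripts thus moved with the score in pulse, while in chase their ratios were 1.27 and 0.885 (0.673 to 1.17). Their part in the result was not tested. With cells thinned to 2000 UMIs before scoring, 1 stromal member in place of 5 reached a 1.5-fold ratio in the pulse library. In chase the ratios were smaller, 1.40 (1.30 to 1.51) for C3 and 1.20 (1.15 to 1.25) for C4b. Along the interferon sum Cfb had the largest pulse ratio, 1.90 (1.68 to 2.15), with C3 at 1.65, and in chase C4b had 1.34 and C3 1.12 (1.04 to 1.21).

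With the cut points of the pulse library applied to both, the chase to pulse ratio of C3 ran from 2.43 to 3.61 over the 4 inflammatory parts and from 2.66 to 3.95 over the 4 interferon parts. For C4b it ran from 1.62 to 1.92 and from 1.64 to 1.89. Each score is a sum over few genes in 1 cell, so cells of one part need not be alike, and chase cells need not spread within a part as pulse cells do.

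**Figure D5:**
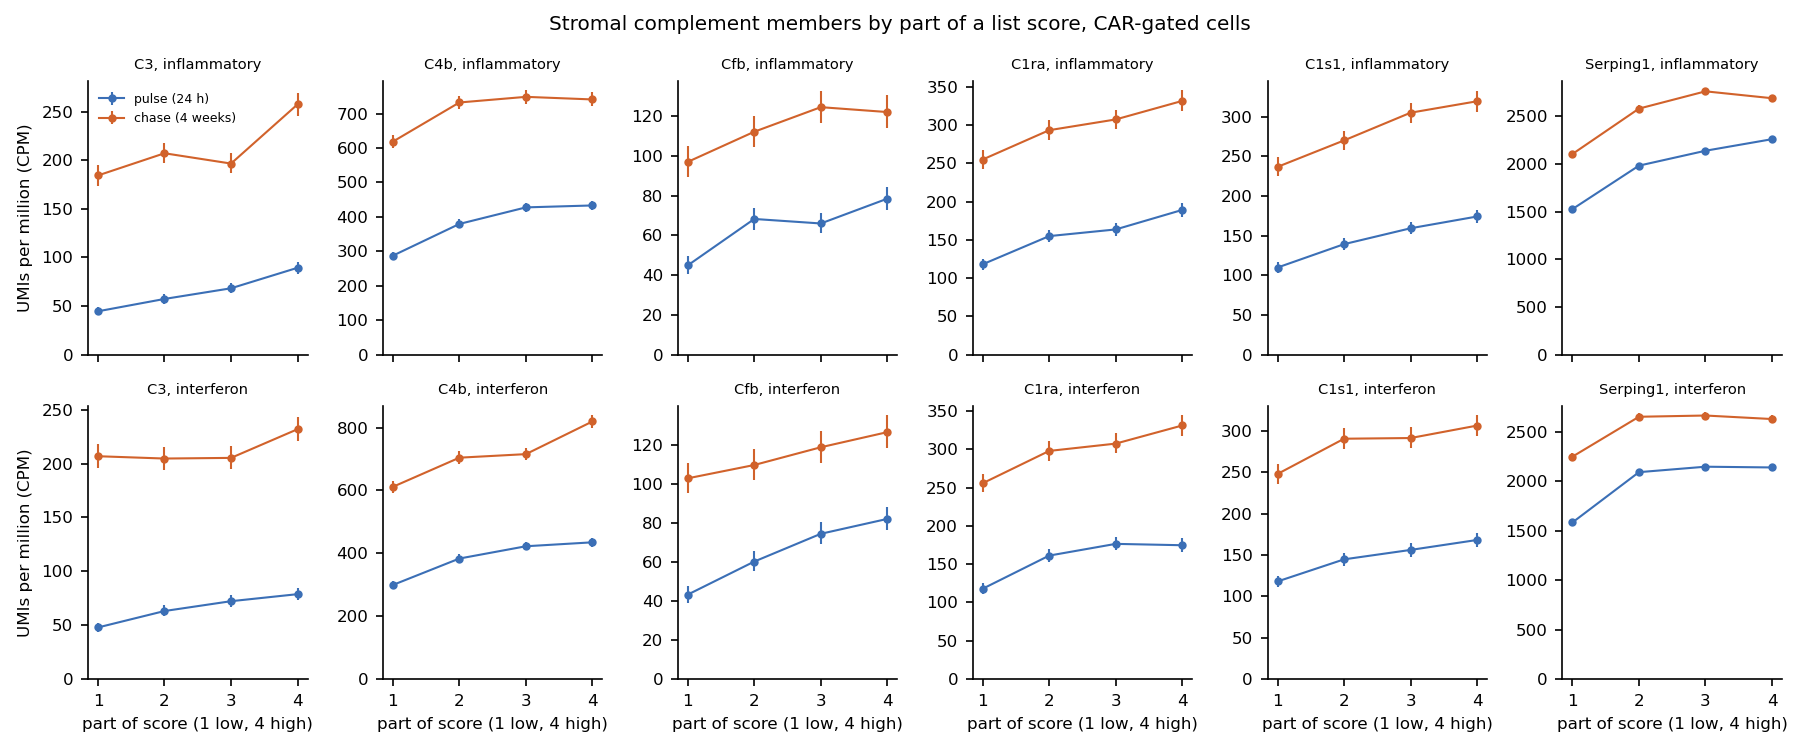
CPM of the 6 stromal members in CAR-gated cells by part of the summed inflammatory list (top row) and interferon list (bottom row), with exact 95% Poisson intervals; the 4 equal parts are taken within each library. The chase line lies above the pulse line in every panel, and the pulse line of C3 runs from 44.5 to 89.4 CPM along the inflammatory parts.

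In macrophage-gated cells C4b, C1s1 and Cfb, 3 of 9 measured members, were higher in chase, where 3.7% of genes were higher, and C3 alone was lower (background 4.86%). C3 was at 0.472 times its pulse level (0.435 to 0.512). Over the same cells neutrophil markers summed to 1239.5 CPM in pulse and 497 CPM in chase (7 genes) and CAR markers to 1824 and 1357 CPM (8 genes), with none at 0, and their part in the result was not tested. C1qa and C1qb were at 0.941 times (0.929 to 0.954) and 1.03 times (1.01 to 1.04) their pulse levels, and C3ar1 at 1.24 times (1.14 to 1.35). Cfb was at 2.81 times (2.19 to 3.63), with 90.5% of its 84 pulse UMIs in 48 cells. C1s1 rested on 18 and 61 UMIs, 0.824 and 1.39 times its carry-over prediction. The makeup of the gate differed between libraries: 340 pulse and 29 chase cells had little H2-Ab1, an antigen-presentation gene, and 320 and 727 had much of it (under 8 and at least 32 UMIs per 10000). Among the H2-Ab1 high cells C3 was at 281 CPM in pulse and 112 CPM in chase, a ratio of 0.399 (0.361 to 0.441), so the difference was at least as large there. Cfb was at 21.2 and 34.4 CPM in those cells, a ratio of 1.62 (1.21 to 2.21). C3ar1 turned in direction, from 172 to 150.3 CPM. Inside the pulse library C3ar1 was at 70.1 CPM in H2-Ab1 low cells and 172 CPM in H2-Ab1 high cells, and C3 at 182 and 281 CPM.

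Endothelial, osteoblast, monocyte and neutrophil gates were compared in the same way. Endothelial-gated cells had C1ra and Cfb, 2 of 7 measured members, higher in chase (background 3.51%) and 0 lower (3.37%). Cfb there was at 1.71 times (1.21 to 2.44) its pulse level and C1ra at 2.42 times (1.54 to 3.88), from 30 and 61 UMIs. In osteoblast-gated cells C4b, C1ra, C1s1 and Serping1, 4 of 7, were higher in chase (background 8.94%) and 0 were lower (3.21%). Serping1 was at 41.1 and 86.6 CPM there, 1.05 and 1.15 times the carry-over prediction, and its ratio of 2.11 was 1.31, under the threshold, with classes taken from clusters. The C1s1 ratio of 1.71 was 1.61 and no longer called with TMM factors. With a free RNA profile subtracted, C1ra was at 11.4, C1s1 at 5.73 and C4b at 4.42 times the pulse level. These are ratios of small remainders without intervals: C1ra was at 3.75 and 9.24 CPM before subtraction. Serping1 had no ratio, because its level after subtraction was not above 0 in at least 1 library. In monocyte-gated cells Serping1, 1 of 8, was higher (background 2.84%) and 0 were lower (4.18%). Serping1 there was at 9.77 and 15.7 CPM, under its 29.7 and 20.0 CPM in lymphocytes, and the part of carry-over was not tested. C3 in monocyte-gated cells was at 0.779 times (0.713 to 0.851) its pulse level. In neutrophil-gated cells C3 was at 1.33 times (1.21 to 1.45).

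Of 49 other complement genes, 22 reached 20 CPM in a stromal, endothelial, macrophage or monocyte gate. In CAR-gated cells 27 were measured, of which 4 were higher in chase (background 7.13%) and 5 lower (6.57%). The higher ones included the lectin Fcnb, at 2.01 and 5.98 CPM, and Cd93, at 13.7 and 21.7 CPM. The lower ones were Cd55, Cd59a, Fcna, C5ar1 and C5ar2. Fcnb reached 64.7 CPM in monocyte-gated, Cd93 970.5 CPM in endothelial-gated and Fcna 1125 CPM in macrophage-gated cells. The part of RNA from other cells in the CAR-gated levels of these genes was not tested. C2, the partner of C4 in the classical convertase, was at 101 CPM in pulse and 107 in chase, and C6, a part of the lytic complex, at 145 and 144 CPM. Of the regulators, clusterin (Clu) was at 634 and 875 CPM, a ratio of 1.38 (1.35 to 1.40). Cd55, a membrane regulator that speeds decay of convertases, was lower in chase at 54.8 and 25.7 CPM (0.470), and so was Cd59a, which blocks the lytic pore, at 26.7 and 11.3 CPM (0.422). The lectin Colec12 was at 294 and 398 CPM and Csmd1 at 83.7 and 112 CPM. Cr1l, which encodes the membrane regulator Crry, was at 65.1 and 71.5 CPM, and C1qbp at 63.7 and 44.1 CPM.

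Osteoblast-gated cells had Cd59a at 76.3 and 89.7 CPM. In macrophage-gated cells 20 of the other genes were measured, with 3 higher (background 3.7%) and 3 lower (4.86%) in chase. C1qc was at 3381 and 3375 CPM, so the third chain of C1q differed as little as the other two. Properdin (Cfp), which stabilises the alternative convertase, was at 1310 and 819 CPM (0.626), the lectin ficolin A (Fcna) at 1125 and 585 CPM (0.520) and Cd55 at 164 and 32.1 CPM (0.196). Among H2-Ab1 high cells Fcna turned, at 322 and 493 CPM, while Cd55 stayed lower at 96.9 and 26.3 CPM. Itgax, a chain of complement receptor 4, was at 18.8 and 51.8 CPM (2.76), Itgam at 42.8 and 55.4 CPM and Itgb2 at 139 and 188 CPM. The anaphylatoxin receptors C5ar1 and C5ar2 were at 50.8 and 57.5 CPM and 26.4 and 31.3 CPM. Endothelial-gated cells had Cd93 at 970.5 and 970 CPM, Cd55 at 168 and 153 CPM, C5ar2 at 85.9 and 91.0 CPM, and Susd4 at 25.5 and 22.3 CPM. Cfd, adipsin, was at 447 and 28.1 CPM in endothelial-gated cells, but 1185 of the 1192 pulse UMIs came from 1 cell, without which it was at 2.64 CPM. Fcnb was at 35.8 and 64.7 CPM in monocyte-gated cells.

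Over 20 profiles, the 10 gated classes in each library, the likeness of members was described by Pearson's r of log2(CPM + 5), over points that share library and depth. The genes most like C3 were Fgd4 (0.93), Pgd (0.92) and Agtrap (0.91), and its r with C4b was 0.27. Those most like C4b were Cyp1b1, Ccl19 and Ptgfr (0.97 each), and its r with C1ra and C1s1 was 0.97 each and with Serping1 0.95. Serping1 was most like Igfbp5, Mdk and Clu (0.99, 0.99 and 0.98). Cfb was most like Gm4951, Tle1 and Deptor (0.94, 0.93 and 0.93). C1qa was most like C1qb, C1qc and Ms4a7 (0.99 each) and had an r of 0.98 with C3ar1.

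On mm10, C3 lies on the minus strand of chr17:57203970-57228136, and C4b (chr17:34728380-34743882) and Cfb (chr17:34856374-34862518) share the same chromosome and strand. C1ra (chr6:124512405-124523443, plus strand) and C1s1 (chr6:124530345-124542359, minus strand) are neighbours that point towards each other, and C3ar1 lies at chr6:122847138-122856161. C1qa (chr4:136895917-136898803) and C1qb (chr4:136880129-136886187) are neighbours on the minus strand, and Serping1 lies at chr2:84765387-84775444. All 9 are protein-coding. C3 and Cfb overlap microRNA genes on their own strand, and Cfb also Gm20547, so reads there could be assigned to either.

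RefSeq promoter sequence of the GRCm38.p6 build was found for 5 of the 9 members, C3, C1ra, C1s1, C1qb and C3ar1. The 250 bases before the start are shown for C3 and C1s1, which were higher in chase CAR-gated cells, and for C1qb as a macrophage member. Capitals mark matches on either strand to TTNNGNAA, a pattern for C/EBP factors, which are known regulators of acute-phase genes.

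C3, chr17:57228137-57228386, minus strand: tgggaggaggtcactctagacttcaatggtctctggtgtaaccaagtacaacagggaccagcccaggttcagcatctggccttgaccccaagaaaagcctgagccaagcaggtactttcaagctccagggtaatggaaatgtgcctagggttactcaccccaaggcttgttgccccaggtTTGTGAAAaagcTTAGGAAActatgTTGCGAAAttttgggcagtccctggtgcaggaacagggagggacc

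C1s1, chr6:124542360-124542609, minus strand: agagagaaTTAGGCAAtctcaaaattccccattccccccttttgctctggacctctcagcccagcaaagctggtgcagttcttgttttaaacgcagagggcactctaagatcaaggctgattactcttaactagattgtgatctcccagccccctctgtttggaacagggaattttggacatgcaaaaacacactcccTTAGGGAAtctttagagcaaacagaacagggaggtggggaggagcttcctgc

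C1qb, chr4:136886201-136886450, minus strand: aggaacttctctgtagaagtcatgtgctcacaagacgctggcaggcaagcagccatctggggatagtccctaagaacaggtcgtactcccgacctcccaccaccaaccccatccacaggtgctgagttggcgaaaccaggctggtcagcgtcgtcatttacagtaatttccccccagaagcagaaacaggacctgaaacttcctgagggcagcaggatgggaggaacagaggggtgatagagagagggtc

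The C3 sequence held 3 matches, which begin at positions -70, -58 and -45 from the start, and the C1s1 sequence shown held 2, at -242 and -52. Another RefSeq start of C1s1, not shown, had a window with 1 match, at -90. C1ra held 2 and C1qb and C3ar1 had 0. Of all 32851 promoters of that length, 36.8% hold at least 1 such match, so its presence is common. No match to GAAANNGAA (an interferon-response core, held by 7.13% of promoters) or GGGANTTTC (an NF-kB pattern, 0.941%) was in the windows of the 5 members, searched on both strands. A match is a description of letters and not a measured site.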

How the data were processed

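The authors deposited UMI counts of each gene in each barcode, not normalised, from Cell Ranger and mm10. The submitters' processing notes name version 2.1.1, the file headers 6.0.2, and which is right was not settled. The sources used here do not say how reads of near-identical genes were assigned. Barcodes were kept from 500 genes and 1000 UMIs upward if mitochondrial UMIs were below 10%, and doublets called by Scrublet in scanpy 1.11.5 were removed (178 pulse, 110 chase). Classes came from fixed marker lists, with thresholds set after seeing the data. UMIs were summed per class and library and divided by the class total (CPM). No test was possible with 1 library per group. Clusters (Leiden, resolution 1, 15 neighbours, 30 components) left out the complement list. All 9 members are named, as are the listed complement genes of at least 20 CPM apart from any not reported here, and the 3 genes most like each of 5 members. Fold calls were tested on simulated counts. The members, lists and gene groups were chosen with earlier results of these data known. Alternatives included other gates, doublets kept and TMM factors of edgeR 4.0.16.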

Additional observations from a re-analysis of the deposited data

Results flagged for a closer look

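C3 stood in opposite directions in CAR-gated and macrophage-gated cells: the chase to pulse ratio was 3.25 (3.10 to 3.41) in CAR-gated cells and 0.472 (0.435 to 0.512) in macrophage-gated cells. The difference between the classes was not tested, since each group is 1 library. The direction was the same inside the 4 CAR clusters with at least 50 cells of each library and among H2-Ab1 high macrophages, where the ratio was 0.399.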

How the results depend on the processing

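No paired analysis was possible because each group is 1 library. Over the alternatives that took the CAR class as a whole, the 5 members called higher in it had ratios above 1.5, while inside single clusters Cfb was at 1.15 to 1.39. The ratio of C3 in macrophage-gated cells lay between 0.399 and 0.553. With classes from clusters, 2 members were lower in osteoblasts, C1qa (0.455) and C1qb (0.587), which turned in direction, and 4 were higher in endothelial cells. At a 2-fold call 1 member was higher in CAR-gated cells, 1 in endothelial-gated cells and 0 in monocyte-gated cells. With a free RNA profile subtracted, 0 members were higher and 5 lower in monocyte-gated cells, 1 was lower in endothelial-gated cells, and C1ra in monocyte-gated cells turned to 0.318. Monocyte-gated cells had 2 lower members with 1 marker more in each gate and 1 with the mean over cells. The subtraction and the mean over cells were called by fold alone, without an interval, so their counts are not like the main ones. By the main rule C3ar1 in monocyte-gated cells, at 0.654 (0.401 to 1.08), was not called. With doublets kept, 1 member was lower in CAR-gated cells. The chase to pulse ratio of the share of CAR-gated cells with C3 was 2.49, and was 2.90 at 1000 UMIs, 2.17 at 4000 UMIs and 4.68 with at least 2 UMIs. Along the inflammatory sum of the pulse library 1 member in place of 5 reached 1.5-fold with cells thinned to 2000 UMIs. The causes were not tested. Members with under 50 UMIs in a class, such as C3ar1 outside myeloid cells, could not be compared at this depth.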
